A study of Homo sapiens with 6 samples.

Results

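Of the 16070 genes in the deposited expression table, 66 carried a histone gene symbol, chosen by a symbol pattern for the replication-dependent histone genes and the main histone variants. Of these, 55 were replication-dependent histone genes (called clustered genes here) and 11 were variant genes. The clustered genes lay on chromosome 6 (45) and chromosome 1 (9), except H4-16, which lies on chromosome 12. The cells were NCI-H1299, an established lung cancer line of the non-small cell type that lacks p53 protein. Cells in 3 libraries were kept for 48 h with 25 µM of 6p, described by the series as a platensimycin derivative, and cells in 3 control libraries with vehicle (0.1% DMSO), although one label field calls the controls untreated. All 6 libraries shared the same line and serum medium, and the question was which histone transcripts differed between the 2 groups. VIM, KRT8 and KRT18, fixed as markers of this line, ran from 281 to 3060 FPKM (fragments scaled to gene length and library size), whereas PTPRC, PECAM1 and CDH5 of leukocytes and endothelium stayed at or below 0.0407 FPKM.

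Histones are the proteins that package DNA. A nucleosome core holds pairs of H2A, H2B, H3 and H4, and H1 binds the linker between cores. Clustered genes are transcribed in S phase to package newly copied DNA. Their main messengers are not polyadenylated and end just after a stem-loop bound by SLBP, which is then needed for their processing and translation. Variant genes are transcribed through the cell cycle, most of them as ordinary polyadenylated and spliced messengers, and their proteins are placed in chromatin outside of replication. Some clustered genes are also known to give polyadenylated messengers, mainly in cells that divide little. The libraries were made with an mRNA kit, a type that captures polyadenylated RNA, so the values of clustered genes describe the RNA that such a kit retains and not the whole histone messenger pool. In bulk RNA, fewer cells in S phase and less histone RNA per cell cannot be told apart.

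The stem-loop was looked for in GENCODE release 29 transcripts, on the sense strand, as 16 bases that read GG, any 2 bases, CTTTT, any base, AG, any base and GCC. It was present in 34 of 19702 protein-coding genes (0.173%), and in 23 of the 61 members with a GENCODE transcript: 22 of 50 clustered genes and 1 variant gene, H2AX. No match says only that these letters are not in the annotated transcript. The sites of members that the results turn on follow, 5′ to 3′ on the gene's strand, with the stem-loop in capitals and 5 bases on each side.
H2BC9, chr6:26252050-26252075, plus strand: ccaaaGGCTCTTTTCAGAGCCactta
H3C8, chr6:26270918-26270943, minus strand: aaaaaGGCTCTTTTAAGAGCCgccta
H2AC6, chr6:26124664-26124689, plus strand: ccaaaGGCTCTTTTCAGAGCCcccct
H2BC5, chr6:26158582-26158607, plus strand: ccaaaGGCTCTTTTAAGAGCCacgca
H2BC21, chr1:149886183-149886208, minus strand: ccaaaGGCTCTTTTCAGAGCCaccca
H2AX, chr11:119094893-119094918, minus strand: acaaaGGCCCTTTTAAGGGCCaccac
These sites differ in single bases of the loop and stem, and H2BC9, H2AC6 and H2BC21, which differed in direction in the results, hold the same 16 bases. In 17 of the 22 clustered genes with a match, the RefSeq gene ended within 18 bases of the stem-loop. The gene length behind each FPKM value, recovered from the values, equalled the RefSeq span in H2BC9, H3C8, H2AC6 and H2BC21. For H2BC9, H3C8 and H2AC6, fragments from a messenger that runs on past the stem-loop were therefore counted only up to a few bases beyond it. For H2BC21 the counted model ran 1729 bases further. The RefSeq gene of H2BC5 ended 12747 bases past its stem-loop, with 1320 nt counted in all.

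The libraries held 16775655 to 19957335 fragments. Control replicate 3 and 6p replicate 1 stood apart from the others of their group, with short genes reading higher and long genes lower (Spearman's rho over genes between gene length and the difference, -0.68 and -0.52, a description across genes). Histone genes of the clusters are short, with a median counted length of 493 nt among those tested and 3904 nt for all tested genes. Values without these 2 libraries and with the length trend removed are therefore given where they change the call of a histone gene named here. Removing the trend also takes out any difference between the groups that follows gene length. Genes that averaged 0.5 FPKM or more were tested with limma on log2(FPKM + 1), and fold changes below are on that scale, which understates changes of low genes. Of 11745 genes tested, 5457 (46.5%) differed at adjusted p under 0.05, 2506 higher in 6p (21.3%) and 2951 lower (25.1%), and 3524 differed without control replicate 2. After rescaling to TPM (values summing to the same total in each library) 12589 genes passed the filter. The split was then 1620 higher and 4095 lower, and the median of all genes tested shifted by -0.16.

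Among variant genes, H2AX was 2-fold lower in cells given 6p, H2AZ2 and H3-3A fell less, and H2AJ and MACROH2A2 rose. All 11 variant genes passed the expression filter. In limma 3 were higher and 3 lower, which is 54.5% called beside 46.5% of all tested genes, and their median log2 fold change was -0.05 beside -0.04 for all genes. In 3 of the 11 every 6p library was above every control library (26% of all tested genes), and in 4 every one was below (31.5%). Leaving out control replicate 1 or 2 left 1 variant higher, as did the replicate block, and leaving out 6p replicate 1 gave 5 lower. The variants as a group were called about as often as other genes, and the members moved in both directions.

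**Figure D1:**
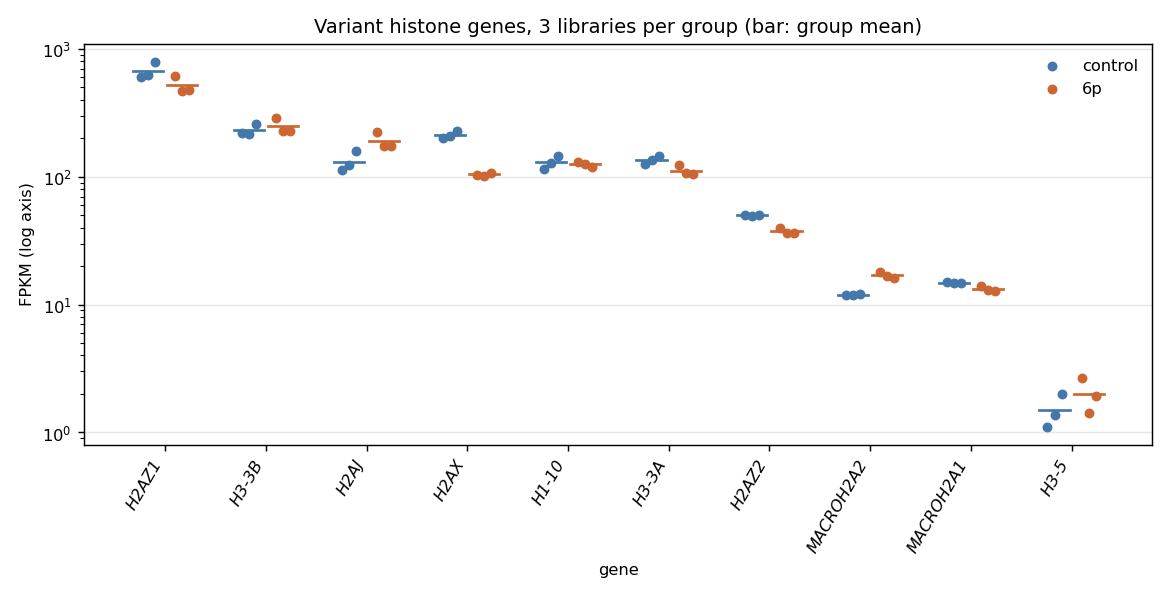
FPKM of 10 of the 11 variant histone genes on a log axis, each dot 1 library and each bar a group mean (3 control and 3 6p libraries). H2AX shows the widest gap between groups, at 201 to 227 FPKM in control and 102 to 107 FPKM in 6p.

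H2AX (NCBI gene 3014, chr11:119093874-119095465) encodes the H2A variant that is phosphorylated around DNA breaks. It read 201, 209 and 227 FPKM in control replicates 1 to 3 and 104, 102 and 107 FPKM in 6p replicates 1 to 3. The groups were far apart. The means were 213 ± 13.2 and 104 ± 2.51 FPKM (each ± SD, n = 3, and so for every pair of means), with a log2 fold change of -1.02 ± 0.08 (SE, as below) and adjusted p = 7.33e-05 in limma. The change ran from -1.20 to -0.96 over all 15 alternatives and passed in each. Its RefSeq span overlaps DPAGT1, and the sources do not say whether counting used strand.

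H2AZ1 and H2AZ2 encode the closely related H2A.Z proteins, found at promoters and exchanged into chromatin outside of replication. H2AZ1 had the highest level of the 66 genes. It read 603, 621 and 786 FPKM in control and 611, 469 and 477 FPKM in 6p, so 6p replicate 1 lay inside the control range and control replicate 3 above the other controls. The log2 fold change of -0.37 ± 0.15 did not pass in limma (adjusted p = 0.0734, range over alternatives 3.44e-06 to 0.216). Without the 2 libraries that stood apart, H2AZ1 was lower by the same -0.37 with adjusted p = 1.08e-05, and it also passed as lower without 6p replicate 1 (-0.49, adjusted p = 0.0244 in limma), after TPM (-0.55) and with the length trend removed (-0.68). H2AZ2 read 50.2, 49.1 and 50.4 FPKM in control and 39.7, 36.3 and 36.2 FPKM in 6p. Its groups did not overlap, and it fell in limma by 0.41 on the log2 scale (adjusted p = 0.00243).

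H2AJ, a close relative of canonical H2A that is known to build up in senescent cells, moved the other way. It read 112, 123 and 160 FPKM in control and 223, 173 and 173 FPKM in 6p. The highest library of each group was the one that stood apart by length, and H2AJ is short, with 620 nt counted. It rose in limma by 0.53 ± 0.15 (adjusted p = 0.0234). The change was 0.55 without both of these libraries (adjusted p = 4.83e-07) and 0.17 with the length trend removed (adjusted p = 0.0199). Leaving out control replicate 1 gave adjusted p = 0.0818 in limma, leaving out control replicate 2 gave 0.0844 and leaving out 6p replicate 1 gave 0.0585, so each ended the call, as did the replicate block (0.0685).

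The macroH2A genes encode H2A variants that carry a large globular domain and are typical of silent chromatin. MACROH2A2 read 11.9, 11.8 and 12.1 FPKM in control and 17.8, 16.6 and 16.2 FPKM in 6p, a rise of 0.47 ± 0.07 (adjusted p = 0.00132 in limma) that passed under all 15 alternatives. MACROH2A1 read 14.9, 14.7 and 14.7 FPKM in control and 14.1, 13.0 and 12.7 FPKM in 6p, with adjusted p = 0.114 in limma. MACROH2A2 was thus below MACROH2A1 in each control library and above it in each 6p library. MACROH2A1 passed as lower without the libraries that stood apart (-0.19, adjusted p = 0.00931 in limma), without 6p replicate 1 (-0.19) and after TPM (-0.33), and read 0.10 with the length trend removed. Its RefSeq span overlaps PITX1-AS1 and that of MACROH2A2 overlaps AIFM2.

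H3-3A and H3-3B encode the same protein, H3.3, the H3 variant placed in active genes by HIRA. H3-3A read 126, 135 and 144 FPKM in control and 123, 106 and 105 FPKM in 6p. These groups did not overlap, though control replicate 1 and 6p replicate 1 were close, and the gene fell in limma by 0.28 on the log2 scale (adjusted p = 0.0406). Leaving out control replicate 2 ended that call (adjusted p = 0.123 in limma), and so did leaving out control replicate 3 (0.0821), leaving out 6p replicate 2 (0.123) and leaving out 6p replicate 3 (0.14). It was also lost with median recentring (0.194), with no filter (0.0571) and with the replicate block (0.127). H3-3B read 219, 216 and 259 FPKM in control and 287, 229 and 227 FPKM in 6p, with overlapping groups (0.09 ± 0.12, adjusted p = 0.554 in limma). H3-5, a retrocopy of H3-3B, stayed at 1.11 to 2.65 FPKM with overlapping groups (adjusted p = 0.245 in limma, 0.0482 without the libraries that stood apart). H3.3 genes have processed pseudogenes, and the treatment of reads shared with them is unknown here.

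H1-10 encodes H1.10 (also called H1X), a variant linker histone, and read 115, 129 and 146 FPKM in control and 131, 125 and 119 FPKM in 6p, with adjusted p = 0.696 in limma. It passed as lower after TPM (-0.23) and with the length trend removed (-0.25).

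Ratios between related genes within a library show the shift in make-up without scaling between libraries, although the length trend still acts on them where lengths differ. These 6 ratios were chosen after the values were seen. The ratio of MACROH2A2 to MACROH2A1 was 0.808 ± 0.0128 in control and 1.28 ± 0.00524 in 6p, H3-3B to H3-3A 1.72 ± 0.0999 and 2.22 ± 0.105, and H2AJ to H2AZ1 0.196 ± 0.00873 and 0.365 ± 0.00339. The ratio of H2AX to H2AZ1 went from 0.320 ± 0.0271 to 0.204 ± 0.0301. In these pairs and in H2BC12 to H2BC9, the groups did not overlap, and the exact two-sided permutation test gave p = 0.1, the smallest that 3 against 3 allows (0.12 adjusted over the 6). H2AZ1 to H2AZ2 was 13.4 ± 1.91 in control and 13.8 ± 1.38 in 6p, with overlapping groups (exact p = 0.6).

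**Figure D2:**
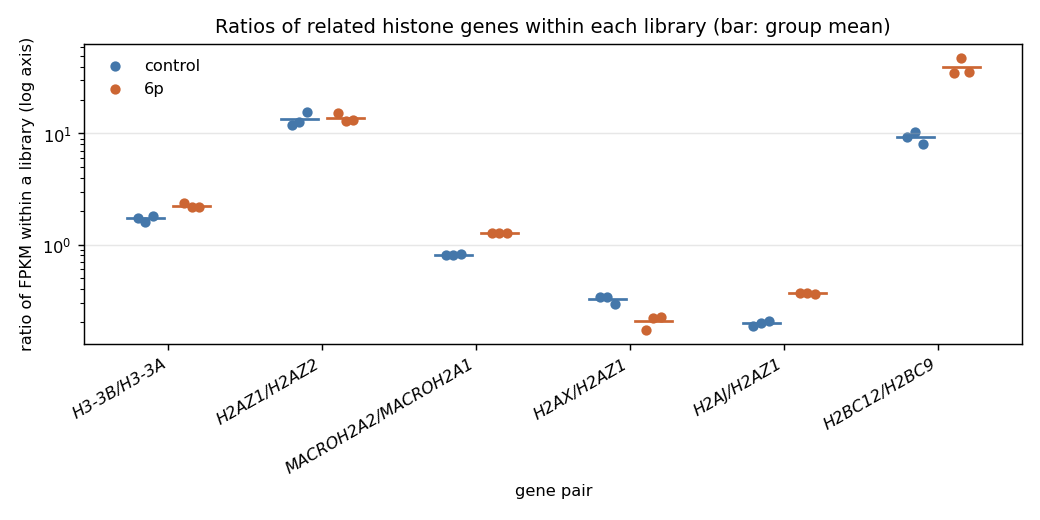
Ratio of FPKM between 2 related histone genes in each library (log axis), each dot 1 library and each bar a group mean of 3. The H2BC12 to H2BC9 ratio lies at 8.10 to 10.3 in control and 35.2 to 48.2 in 6p, while the H2AZ1 to H2AZ2 ratios of the groups overlap.

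Clustered genes were read far less than variants, and 6 of them were called higher and 5 lower in 6p, with 16 tested genes not called. Their 55 members summed to 218 ± 4.22 FPKM in control and 284 ± 22.6 FPKM in 6p, where the 11 variants summed to 1603 ± 186 and 1383 ± 161 FPKM. H2BC12 alone accounted for much of the clustered sum, and the other 54 gave 109 ± 3.13 FPKM in control and 117 ± 11.5 FPKM in 6p, with overlapping libraries. By family, the sums for clustered H2B were 144 ± 6.51 and 202 ± 12.2 FPKM, for H2A 31.8 ± 4.06 and 38.5 ± 0.742 FPKM and for H1 21.1 ± 2.46 and 26.3 ± 7.26 FPKM. Clustered H3 summed to 15.3 ± 1.64 and 9.82 ± 1.76 FPKM and H4 to 5.67 ± 0.997 and 7.21 ± 1.43 FPKM, each control before 6p. Every 6p library was above every control for H2B and H2A and below it for H3, and the groups overlapped for H1 and H4. In FPKM, the H2B sum did not rise without H2BC12, nor the H2A sum without H2AC6. Without H2BC12 clustered H2B summed to 35.5 ± 1.81 and 35.3 ± 2.04 FPKM, and without H2AC6 clustered H2A summed to 18.01 ± 2.60 and 14.8 ± 0.943 FPKM, the opposite direction, with overlapping libraries in both. H3 without H3C8 stayed lower in every 6p library, at 10.2 ± 1.48 and 7.87 ± 0.961 FPKM.

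Of the 55 clustered genes, 27 passed the filter and were tested. In limma 6 were higher and 5 lower, 40.7% of those tested beside 46.5% of all genes, with a median log2 fold change of -0.01. The higher ones were H2BC5, H2BC15, H2AC6, H2BC12, H2BC4 and H2BC21, and the lower ones H2BC9, H3C8, H2AC13, H2AC14 and H2AC20, of which H2AC14 passed the filter only through its control values. In 7 of the 27 every 6p library was above every control library (25.9%, beside 26% of all tested genes), and in 4 every one was below (14.8%, beside 31.5%). A member that is low in both groups could not enter the test, so these counts do not describe all 55. With the length trend removed 11 were lower and 4 higher, and without the libraries that stood apart 10 were lower and 7 higher. After TPM, where 35 clustered genes passed the filter, 7 were lower and 4 higher. Where counts of fragments are low, the length correction shifts a gene by as much as a high one of that length on the log2(FPKM + 1) scale.

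**Figure D3:**
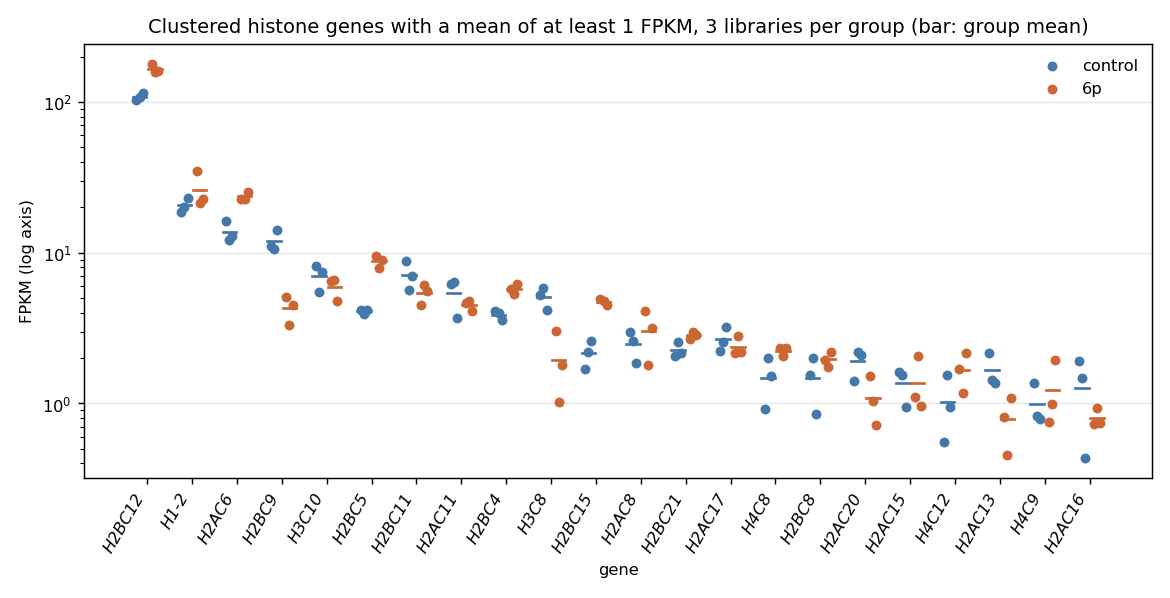
FPKM of the clustered histone genes averaging 1 FPKM or more, on a log axis, each dot 1 library and each bar a group mean (3 control and 3 6p libraries). H2BC12 lies far above the rest in both groups, and H2BC9 and H3C8 are the clearest cases of 6p libraries below all controls.

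H2BC12 (NCBI gene 85236, chr6:27138293-27146858), an H2B gene, read 103, 109 and 114 FPKM in control and 180, 159 and 161 FPKM in 6p. All 6p libraries were above all controls, and the rise was 0.61 ± 0.09 (adjusted p = 0.000965 in limma, from 0.31 to 0.67 over 15 alternatives and past the threshold in each). Its RefSeq span contains H4C9, so reads there are uncertain. H2BC5 (NCBI gene 3017, chr6:26158121-26171349) read 4.16, 3.92 and 4.18 FPKM in control and 9.57, 7.98 and 8.90 FPKM in 6p. It had the largest rise of the tested histone genes on this scale, 0.94 ± 0.08 (adjusted p = 0.000139 in limma), and passed under all alternatives. The RefSeq span of H2BC5 overlaps H2BC6-AS1 and LARP1P1. H2BC15 was read at 1.69, 2.21 and 2.60 FPKM in control and 4.90, 4.80 and 4.51 FPKM in 6p, from 17 to 53 fragments a library. It rose by 0.87 ± 0.11 (adjusted p = 0.000686 in limma).

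H2AC6 and H2BC4 are neighbours that start 246 bases apart on opposite strands, and both rose. H2AC6, an H2A gene (NCBI gene 8334, chr6:26124172-26124690), read 16.3, 12.2 and 12.9 FPKM in control and 22.8, 22.9 and 25.4 FPKM in 6p. The groups were apart, with a rise of 0.75 ± 0.11 (adjusted p = 0.0013 in limma), which was 0.36 and did not pass with the length trend removed (adjusted p = 0.138). H2BC4 read 4.09, 3.99 and 3.59 FPKM in control and 5.76, 5.30 and 6.24 FPKM in 6p, a rise of 0.47 ± 0.09 (adjusted p = 0.00351 in limma, and 0.0549 after TPM). H2BC21 read 2.06, 2.54 and 2.16 FPKM in control and 2.68, 3.003 and 2.84 FPKM in 6p, and its call was at the threshold (0.24 ± 0.09, adjusted p = 0.0489 in limma). It was lost under 11 of the 15 alternatives, among them leaving out any library other than 6p replicate 1 (adjusted p up to 0.157).

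H2BC9 (NCBI gene 8345, chr6:26251614-26252075) had the largest fall. It read 11.1, 10.6 and 14.1 FPKM in control and 5.10, 3.31 and 4.52 FPKM in 6p, from 95, 90 and 125 fragments and 47, 27 and 35 fragments. The lowest control was above the highest 6p library by a wide margin, and the change was -1.29 ± 0.15 (adjusted p = 0.000412 in limma, from -1.69 to -1.15 over 15 alternatives and past the threshold in each). H3C8, an H3 gene (NCBI gene 8355, chr6:26270918-26271413), read 5.22, 5.81 and 4.20 FPKM in control and 3.03, 1.03 and 1.80 FPKM in 6p. It fell by 1.09 on the log2 scale (SE 0.23, adjusted p = 0.0061 in limma), and also passed under all alternatives. Among 6p libraries its highest value was in replicate 1, and without that library the change was -1.34.

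The other falling genes were H2A genes near the filter. H2AC13 read 2.18, 1.43 and 1.37 FPKM in control and 0.810, 0.457 and 1.08 FPKM in 6p (-0.58 ± 0.16, adjusted p = 0.0175 in limma), and did not pass without control replicate 1 (adjusted p = 0.0553). H2AC14, named after its values were seen, rested on 8, 6 and 9 fragments in control and 3, 3 and 2 in 6p (-0.50 ± 0.08, adjusted p = 0.00213 in limma). Its means were 0.859 and 0.308 FPKM, so it passed the filter only through the control group and its call supports nothing, and H3C7, at 0.652 and 0.303 FPKM, stayed untested. H2AC20 read 1.42, 2.20 and 2.11 FPKM in control and 1.52, 1.03 and 0.724 FPKM in 6p, so its groups overlapped (-0.48 ± 0.16, adjusted p = 0.0363 in limma). Its call was lost under 8 of the 15 alternatives, which included leaving out control replicate 2 (adjusted p = 0.12 in limma), leaving out control replicate 3 (0.0878), leaving out 6p replicate 2 (0.0775) and leaving out 6p replicate 3 (0.113). H2AC20 and H2BC21 start 236 bases apart on opposite strands, and the calls of this pair went in opposite directions.

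Of 10 divergent pairs of members whose starts lay within 1000 bases, H2BC4 with H2AC6 was the one with both partners called in the same direction. The pairs that held H2BC14, H2BC13, H3C4 or H3C7 could not have both partners called, because these genes were not tested. In H2AC15 and H2BC15, 194 bases apart, H2BC15 rose while H2AC15 had a mean of 1.37 FPKM in control and 1.38 in 6p. H2BC11 and H2AC11, 248 bases apart, read 7.16 ± 1.55 and 5.44 ± 1.51 FPKM in control and 5.40 ± 0.837 and 4.54 ± 0.376 FPKM in 6p, with overlapping groups and adjusted p = 0.0979 and 0.379 in limma. H2AC11 passed as lower without control replicate 3 (-0.40, adjusted p = 0.00824 in limma) and without both libraries that stood apart (-0.42, 0.000319). H2BC11 passed as lower without control replicate 2 (-0.48, adjusted p = 0.0437 in limma) and with the length trend removed (-0.74, 0.0386). A shared stretch between starts therefore went with similar values in some pairs and with different ones in others.

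The remaining clustered genes that averaged 1 FPKM or more had adjusted p of 0.0531 or more in limma. H1-2, which encodes a main somatic linker histone, read 18.7, 20.02 and 23.2 FPKM in control and 34.6, 21.3 and 22.8 FPKM in 6p, so that 6p replicate 1 alone was high (0.30 ± 0.17, adjusted p = 0.178). Without both libraries that stood apart H1-2 passed as higher in limma (0.18, adjusted p = 0.0153), and it read -0.034 with the length trend removed. H4C8 was closest to the threshold, at 1.48 ± 0.538 and 2.25 ± 0.147 FPKM with every 6p library above every control (adjusted p = 0.0531). It passed as higher without control replicate 2 (0.56, adjusted p = 0.0205 in limma) and with median recentring (0.47, 0.04), and read -0.0088 with the length trend removed. H3C10 had 7.07 ± 1.41 and 5.97 ± 1.03 FPKM, H2AC8 2.48 ± 0.570 and 3.03 ± 1.15 FPKM, and H2AC17 2.66 ± 0.505 and 2.38 ± 0.352 FPKM, all with overlapping groups. With the length trend removed H3C10 (-0.60, adjusted p = 0.0158 in limma) and H2AC17 (-0.51, 0.0146) passed as lower. The groups also overlapped for H2BC8, H4C12, H4C9 and H2AC16, at 0.803 to 1.96 FPKM on average in each group. These last genes held 4 to 19 fragments a library. H2AC16 passed as lower without control replicate 3 (-0.57, adjusted p = 0.00422 in limma) and without both libraries that stood apart (-0.54, 0.000361), and H4C12 passed as higher without control replicate 2 (0.60, 0.0361).

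**Figure D4:**
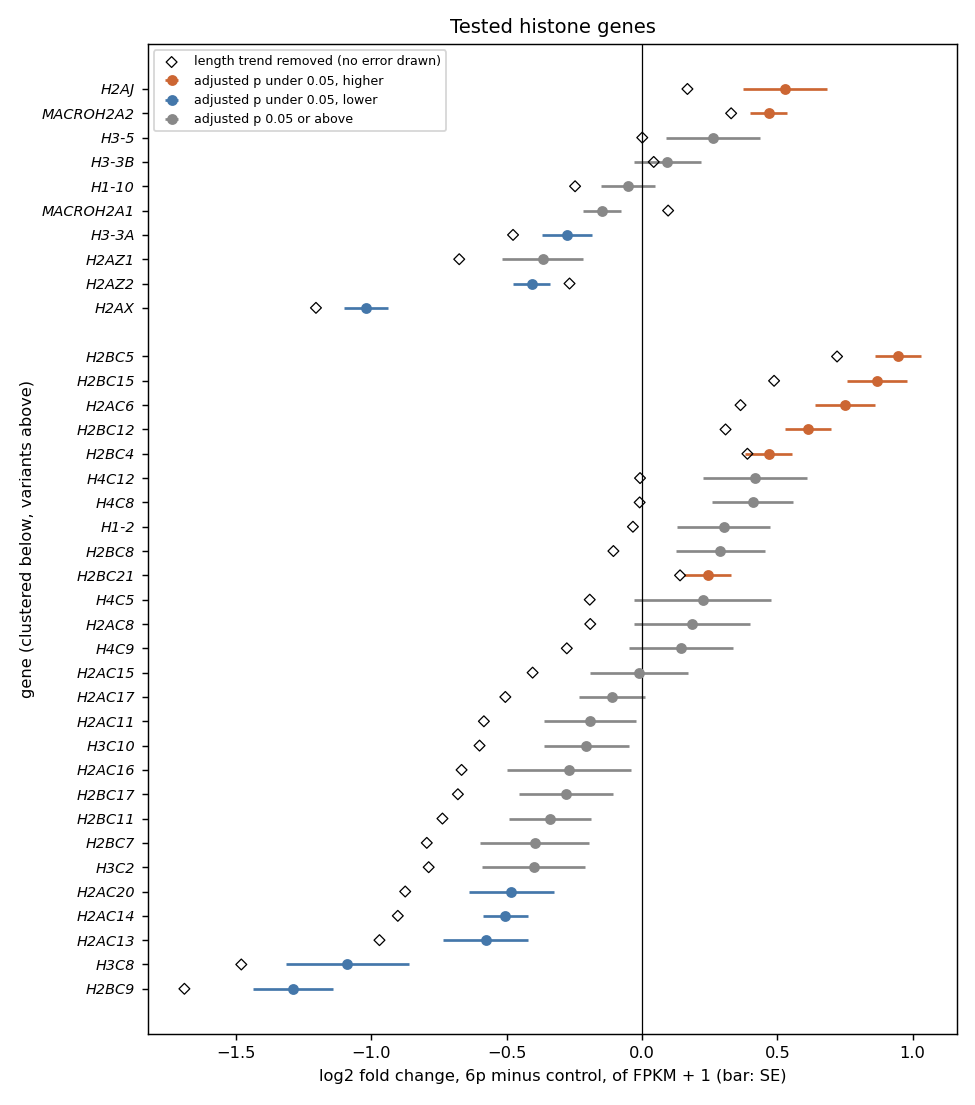
Log2 fold change of FPKM + 1, 6p minus control, of 37 of the 38 histone genes tested, with SE (bars) and coloured by the limma call. Open diamonds give the value with the length trend removed, which moved most short clustered genes to the left and left H2BC9 and H3C8 lowest and H2BC5 and H2BC15 highest among clustered genes.

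The 28 clustered genes below the filter held 0 to 12 fragments in any library, and 23 of them had 0 in at least 1 library, where a count of 0 allows up to 3 fragments for counting error alone. Together they summed to 5.51, 4.97 and 5.81 FPKM in control and 4.54, 3.14 and 3.63 FPKM in 6p. The 6p sums were all below the controls, at a level where 31 to 55 fragments a library carried them. H4C11 held 8 fragments in control replicate 3 and 10 in 6p replicate 1, and 0 or 1 in the other 4 libraries, so its reads came almost wholly from the libraries that stood apart by length.

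A list of 8 clustered genes known to give polyadenylated transcripts was set beside the others. Of the 8, all tested, 5 were higher and 0 lower in limma (21.3% of all tested genes were higher), with a median of 0.44. Members lower at an unadjusted p under 0.05, or in voom on recovered fragments, also numbered 0. H2BC11 of this list did pass as lower without control replicate 2 (-0.48, adjusted p = 0.0437 in limma) and with the length trend removed (-0.74, 0.0386). With the length trend removed, H2AC6 (0.36, adjusted p = 0.138 in limma) and H2BC21 (0.14, 0.194) were no longer called higher. Of the 19 other tested clustered genes 1 was higher (H2BC15) and 5 lower, with a median of -0.21. This is 31.6% called, below the 46.5% of all tested genes, of which 25.1% were lower. Counted length ran in parallel: all 4 tested clustered genes with more than 800 nt counted (H2BC4, H2BC5, H2BC12 and H2BC21, all on that list) were higher, and of the 23 shorter ones 2 were higher and 5 lower. This split by length was made after the values were seen. In both splits the 5 lower genes include H2AC14, which passed the filter only through its control values. Some low members that were not called also passed through the values of 1 group alone, and they enter the medians. The part of polyadenylated read-through in these differences was not tested.

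Most clustered promoters hold a CCAAT box, and H2B genes are known for an octamer element bound by POU2F1. In RefSeq promoters (build GRCh38.p14, 250 bases before to 50 after the start), searched on both strands, ATTTGCAT was in 13 of 17 H2B and 9 of 12 H2A clustered promoters, 1 of 9 H3 promoters and 0 of 10 H4 promoters, and in 1.8% of 27305 promoters. Windows of divergent H2A and H2B genes overlap, so 1 octamer can count for both. This was so for H2AC11 with H2BC11, H2AC20 with H2BC21, H2AC8 with H2BC8, H2AC14 with H2BC14, H2AC17 with H2BC17 and H2AC6 with H2BC4. The octamer of the 1 H3 promoter, that of H3C4, was likewise the one of H2BC7. In H2AC11 that octamer lay 208 bases before the start and in H2BC11 47. CCAAT was in 42 of 51 clustered promoters and 35.7% of all, and TATAAA in 33 of 51 and 12% of all. Of the genes called higher 4 of 6 held the octamer, and of those called lower 3 of 5. These were not all separate sites. H2BC4 and H2AC6, both higher, shared 1, as did H2BC21 (higher) and H2AC20 (lower). That of H2AC14 (lower) lay 48 bases before the start of H2BC14. The 120 bases before the start are shown for the highest H2B gene that rose and the H2B gene that fell, 5′ to 3′ on the gene's strand, with these motifs on either strand in capitals.
H2BC12, chr6:27146859-27146978, minus strand: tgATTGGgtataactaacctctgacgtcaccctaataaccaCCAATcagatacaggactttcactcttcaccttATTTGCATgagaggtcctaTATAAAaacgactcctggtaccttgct
H2BC9, chr6:26251494-26251613, plus strand: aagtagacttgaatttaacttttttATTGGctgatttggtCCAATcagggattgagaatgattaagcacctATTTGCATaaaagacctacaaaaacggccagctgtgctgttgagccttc
Both windows held an octamer, 46 and 49 bases before the start, and a CCAAT box on each strand, and TATAAA was found in that of H2BC12. The promoters of a rising and a falling H2B gene thus shared the octamer and CCAAT letters, which are a description of sequence and not of binding.

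In each of 3 lists of genes that make and handle histones, more members were lower than higher. Over all tested genes, 21.3% were higher and 25.1% lower. Of 20 genes for histone messenger transcription and processing, 2 were higher and 9 lower in limma, with a median of -0.29. This is 55% called in either direction, near the 46.5% of all tested genes (11 called, and 7 without control replicate 2). CASP8AP2, needed for histone gene transcription, fell from 8.11 ± 1.42 to 4.15 ± 0.680 FPKM, SRRT, a cap-complex partner, from 71.6 ± 2.50 to 42.3 ± 4.73 FPKM, and LSM11, of the U7 particle that cuts the messengers, from 3.35 ± 0.0729 to 2.26 ± 0.0831 FPKM. The 2 that rose were CDK9, an elongation kinase, from 32.7 ± 1.38 to 43.6 ± 0.502 FPKM, and NELFE, named after its values were seen, by 0.64 ± 0.11. Named for their role and outside the rule, NPAT, the histone gene coactivator, changed by -0.51 ± 0.13 (adjusted p = 0.0154 in limma, up to 0.0621 over alternatives) and SLBP, which binds the stem-loops shown above, by -0.36 ± 0.10 (adjusted p = 0.0212, up to 0.103). The call of NPAT was lost when control replicate 1, or control replicate 2, or 6p replicate 3 was left out. That of SLBP was lost when control replicate 2, or 6p replicate 2, or 6p replicate 3 was left out, with median recentring and with the replicate block.

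Of 18 genes for histone supply and replication-coupled assembly, 1 was higher and 13 lower in limma, with a median of -0.43. This is 77.8% called, beside 46.5% of all tested genes. ASF1B, which hands H3 and H4 to the assembly factors, fell from 52.5 ± 3.37 to 27.3 ± 1.30 FPKM. CHAF1B, of chromatin assembly factor 1, fell from 11.05 ± 0.196 to 6.56 ± 0.176 FPKM, RBBP4 of the same complex from 24.6 ± 0.783 to 15.8 ± 0.185 FPKM and MCM2, a helicase subunit that also binds histones, from 88.9 ± 2.70 to 39.3 ± 5.98 FPKM. The 1 higher gene, named after its values were seen, was NAP1L1, a chaperone of H2A and H2B, at 0.46 ± 0.10. Of 17 genes for variant placement and replication-independent chaperones, 1 was higher and 8 lower in limma, with a median of -0.42. This is 52.9% called in either direction, also near the 46.5% of all tested genes (9 called, and 5 without control replicate 1 or 2). Lower genes were 8 of the 17, beside 25.1% of all tested genes. HJURP, the chaperone of centromeric H3, fell from 42.5 ± 2.31 to 21.2 ± 1.49 FPKM, ANP32E, which removes H2A.Z, from 46.4 ± 0.329 to 29.4 ± 1.20 FPKM and DEK from 149 ± 2.37 to 104 ± 3.47 FPKM. The 1 that rose was APLF, a DNA repair factor with histone chaperone activity, from 1.12 ± 0.134 to 2.65 ± 0.372 FPKM. Beside these, 19 of 20 S phase and replication genes were lower and 1, CCNE1, higher, with a median of -0.84. This is 100% called, where 46.5% of all tested genes were called and 25.1% were lower. RRM2, the regulated subunit of ribonucleotide reductase, fell from 111 ± 2.56 to 40.6 ± 2.17 FPKM. The helicase subunit MCM4 fell by 1.18 on the log2 scale, the S phase cyclin CCNA2 by 1.16 and the phosphatase CDC25A by 0.96. CCNE1, cyclin E1, named after its values were seen, rose from 12.9 ± 1.41 to 18.2 ± 0.356 FPKM. The tested clustered histone genes had a median of -0.01, or -0.40 with the length trend removed, and no test compared them with these lists.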

How the data were processed

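RNA was measured in 3 control and 3 6p libraries. The authors deposited FPKM values in 1 table for all 6 libraries. Trimmomatic, HISAT2, HTSeq, Cufflinks and build GRCh38 are named, without versions, per the submitters' processing notes. The sources name no annotation release and no rule for shared reads. Fragment counts and gene lengths were recovered from the FPKM steps with Python 3.11.15 (tolerance 0.001 for totals, and tighter for genes), and 100% of 11745 tested genes came out whole. Groups were compared with limma 3.58.1 in R 4.3.3 (trend and robust) on log2(FPKM + 1), for genes averaging 0.5 FPKM or more, two-sided, Benjamini-Hochberg over all tested genes, threshold 0.05. The test was tested on simulated data. P-values measure only the spread between these samples, which may be technical. The length trend was removed by a loess fit (span 0.5) in each library, on its difference from the mean of all 6 libraries. A difference between the groups that follows gene length is removed with it. The members and lists were chosen with earlier results of these data known. Members named were variants and clustered genes averaging 1 FPKM or more, and from each list up to 4 with the smallest adjusted p. Fragments are not independent molecules, so counting limits cover counting error only. The 15 alternatives are in the closing section. Counts and sums cover all members, and 1 member is not reported here on its own.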

Additional observations from a re-analysis of the deposited data

How the results depend on the processing

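Settings moved counts of calls and medians more than most genes. Over 54 named genes and their alternatives, 725 of 809 values kept direction and side of the threshold, 41 lost a call, 22 gained one and 21 changed sign, none of the last in a called gene. The count of changed genes (5457) was 3524 to 6095 when 1 library was left out, lowest without control replicate 2, and 7755 with control replicate 3 and 6p replicate 1 both left out (the 2 libraries). Variants called higher numbered 1 with the replicate block and 1 to 3 leaving out 1 library (1 without control replicate 1 or 2). Variants called lower numbered 6 after TPM, 5 without the 2 libraries, 5 with the length trend removed and 2 to 5 leaving out 1 library. Clustered genes called lower numbered 10 without the 2 libraries and 11 with the length trend removed. The clustered median was 0.16 with a filter of 1 FPKM, -0.38 after TPM, 0.048 recentred, -0.14 without the 2 libraries, -0.40 with the length trend removed and -0.17 to 0.043 leaving out 1 library; the variant median was -0.23 after TPM. Called members numbered 3 of the polyadenylated list after TPM, 14 of variant placement without the 2 libraries and 5 to 12 leaving out 1 library, and 7 to 14 of messenger processing leaving out 1 library. The clustered genes tested numbered 22 with a filter of 1 FPKM and 35 after TPM, beside 27 in the main fit. The causes were not tested.

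Signs changed, with no call, for H1-10 (0.0092 recentred, 0.000995 without the 2 libraries, -0.13 to 0.034 leaving out 1 library), H3-3B (-0.085 after TPM, -0.017 to 0.18 leaving out 1), H2AC8 (-0.14 without the 2 libraries, -0.19 by length, -0.0075 to 0.42 leaving out 1), H2AC15 (0.048 recentred, -0.21 to 0.11 leaving out 1), H4C9 (-0.28 by length, -0.074 to 0.30 leaving out 1) and H2AC17 (0.041 without the 2 libraries). With the length trend removed MACROH2A1 read 0.10, H1-2 -0.034, H4C8 -0.0088, H2BC8 -0.11 and H4C12 -0.0074.

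Same-numbered libraries did not pair: their deviations correlated at -0.57, 0.33 and -0.42, so the replicate block (3694 genes changed) shares only a number. The 28 untested clustered genes held 0 to 12 fragments a library.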
